A study of Rattus norvegicus with 8 samples.

Results

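Circular RNAs (circRNAs) were measured from 3 stretches of the rat genome whose summed circRNA level differed between injured and sham cortex. The stretches were a minus-strand locus on chromosome 7 (57294883 to 57434518), a plus-strand locus on chromosome 11 (31943121 to 31996846) and a plus-strand locus on chromosome 6 (30546767 to 30589384), all on Rnor_6.0. Every circRNA of the named strand that lay wholly between those bounds was a member, which gave 22, 12 and 6 circRNAs, or 40 of the 51995 in the deposited table. The loci were chosen by the mTBI minus sham difference in their summed RPM, so that difference is described here and not tested. Of the 3 totals, 0 passed the adjusted threshold (limma adjusted p under 0.05), which 0.0129% of the 7776 locus totals tested did. Each member is named by position, since the table pairs no circRNA with a gene.

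A circRNA forms when the end of a downstream exon is joined backwards to the start of an upstream exon, and it is recognised by reads that cross this back-splice junction. A single gene can give several circRNAs when the same splice site is joined to different partners, and such circRNAs then share a start or an end. Closed circles lack the free ends that exonucleases attack, and circRNAs are known to be plentiful in brain tissue.

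The samples were cerebral cortex of rats taken 24 h after moderate traumatic brain injury (mTBI, 4 rats, cortex around the injury on the injured side) or after a sham procedure (4 rats, the same site), with 1 library per rat. The labels give no strain, sex or age. All animals were perfused with cold saline before dissection. Values are RPM, junction reads scaled to the library's read total. The libraries summed to 4966 to 5874 RPM over all circRNAs, and listed 21508 to 23713 circRNAs each. On the reading that the smallest listed value is 2 reads, these sums are 384910 to 452692 junction reads, and all read numbers below rest on it. A circRNA listed at 0 may have had a read too few to be listed. Marker genes of cortex were not looked up, because the table holds positions only. In tissue libraries such as these, fewer cells of a type and less RNA per cell cannot be told apart.

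The 3 loci differed in how their circRNAs were built and in how many carried the total. All 22 circRNAs on chromosome 7 were linked to each other by shared starts or ends, as were the 12 on chromosome 11 and the 6 on chromosome 6. The chromosome 7 circRNAs used 9 starts and 7 ends, with spans from 4986 to 93399 bases and a median of 47672. Those on chromosome 11 used 4 starts and 8 ends, with spans from 440 to 43295 bases (median 16527). Those on chromosome 6 used 3 starts and 3 ends, with spans from 4343 to 42603 bases (median 40171). The circRNA with the highest mean, called the leading circRNA below, held 32.4% of the RPM of the chromosome 7 locus, 72.9% on chromosome 11 and 85.8% on chromosome 6. Over the 1638 loci of the table with at least 6 circRNAs and a mean of at least 20 reads, where a locus joins circRNAs of the same strand by shared starts or ends, the median leading share was 47.4% (quartiles 32.9% and 64.9%).

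**Figure D1:**
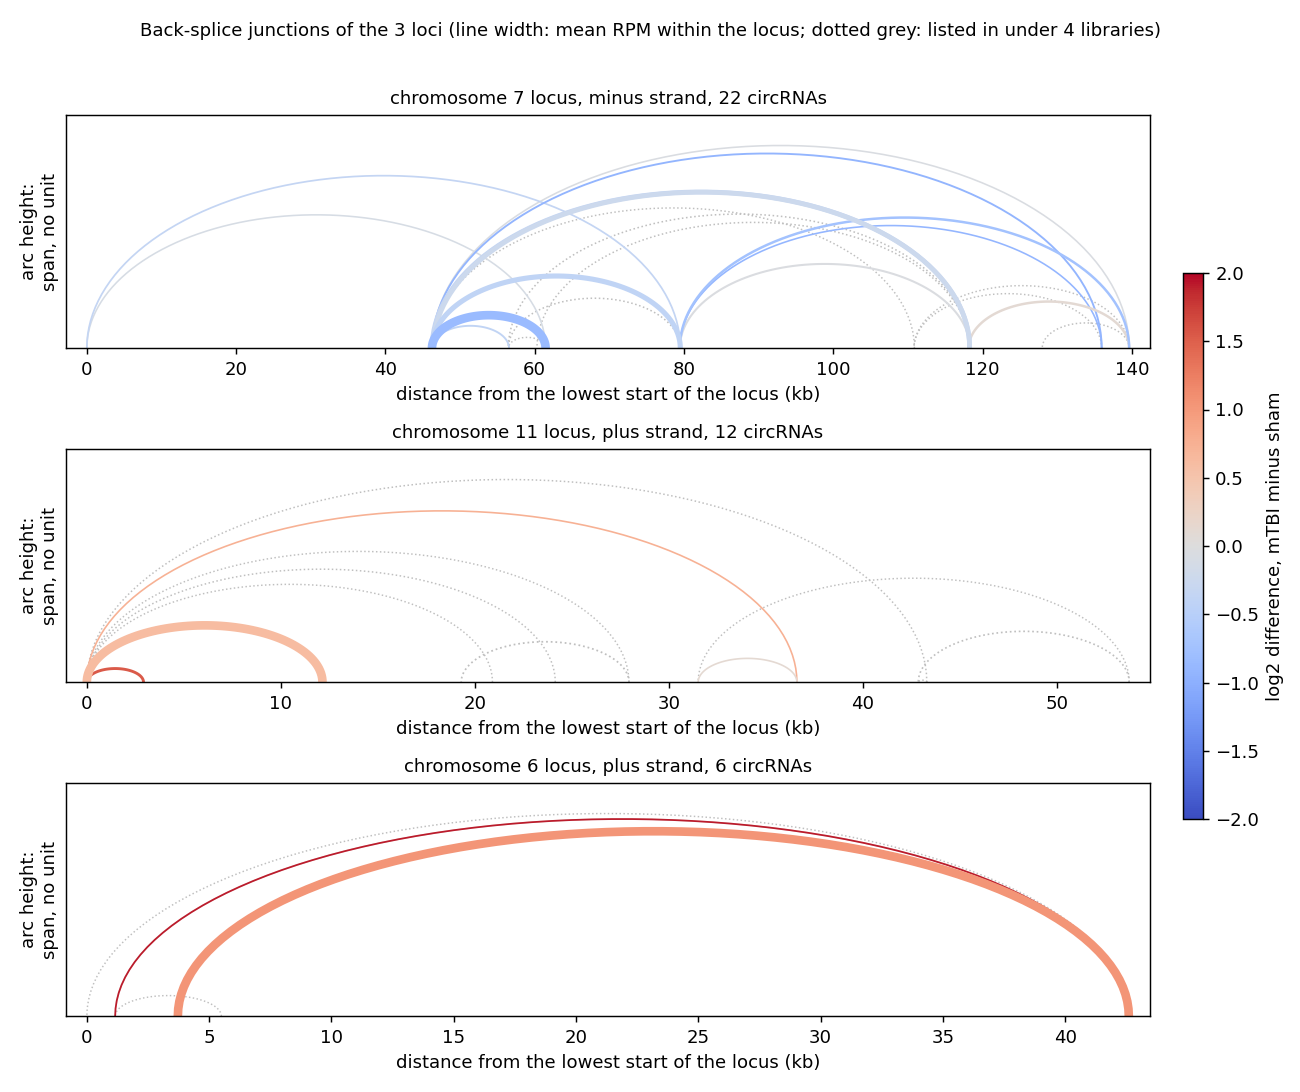
Back-splice junctions of the 3 loci, each drawn as an arc from its start to its end along the distance from the lowest start of the locus (kb); line width follows the mean RPM within the locus and colour the log2 difference, mTBI minus sham. Dotted grey arcs mark circRNAs listed in fewer than 4 libraries, which have no fitted difference; most of the width lies in arcs from 1 start on each of the 3 panels.

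On chromosome 7 the summed RPM was lower in the 4 injured rats than in the 4 sham rats, with 17 of the 22 circRNAs lower and 5 higher by mean RPM. The locus total stood at 3.90, 4.27, 3.97 and 3.96 RPM in the sham rats and at 3.15, 2.51, 2.92 and 2.79 RPM in the injured rats. All 4 mTBI libraries lay below all 4 sham libraries, and the mTBI mean was 0.706 times the sham mean. The log2 difference was -0.50 (SE 0.13, limma over all locus totals, on the log2(RPM + 0.0259) scale). For orientation, 1.63% of the 7776 locus totals tested had all mTBI values below all sham values, and since this locus was picked for its difference, nothing is read from it. With no listing filter, 49.0% of all 51995 circRNAs had a log2 difference above 0. The choice of the locus by its sum favours a count such as 17 of 22, so nothing is read from that count either.

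The leading circRNA of this locus ran from 57341120 to 57356339 (15220 bases, 686 reads in all). It stood at 1.49, 1.48, 1.31 and 1.44 RPM in the sham rats, against 1.06, 0.733, 0.769 and 0.610 RPM in the injured rats. The groups did not overlap, as for 1.41% of all circRNAs tested with lower values in mTBI, and nothing is read from this in a locus picked for its difference. The mTBI library nearest to sham was replicate 1. The mean difference of the leading circRNA, -0.637 RPM, was 53.7% of the difference of the whole locus, although it held 35.5% of the sham RPM. Its share of the locus's reads was 32.9% to 38.1% in the sham libraries and 21.9% to 33.6% in the mTBI libraries. With Wilson 95% intervals, which cover counting error only, mTBI replicate 4 had 21.9% (16.9% to 27.8%) and mTBI replicate 1 had 33.6% (28.0% to 39.7%). The share in mTBI replicate 1 thus lay within the sham range, while the other 3 mTBI libraries lay below it.

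Without the leading circRNA, the other 21 circRNAs of the chromosome 7 locus summed to 2.42, 2.79, 2.67 and 2.51 RPM in the sham rats and 2.09, 1.78, 2.15 and 2.18 RPM in the injured rats. These sums did not overlap either, with a ratio of 0.789 between the group means against 0.554 for the leading circRNA. The RPM difference was therefore largest at the leading junction, but was not held by it alone. The sums are part of the total that chose the locus, so nothing is read from their lack of overlap. How often such sums do not overlap over the whole table was not computed.

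Among the other abundant circRNAs of the locus, the groups overlapped in each case. The circRNA from 57341120 to 57374386 measured 0.504, 0.642, 0.686 and 0.735 RPM in the sham rats and 0.645, 0.437, 0.599 and 0.298 RPM in the injured rats. The circRNA from the same start to 57413150 measured 0.543, 0.616, 0.608 and 0.374 RPM in the sham rats and 0.374, 0.244, 0.456 and 0.636 RPM in the injured rats, so that its highest value of all was in an injured animal. A start 167 bases further on, joined to the same end (57341287 to 57413150), gave 0.711, 0.603, 0.466 and 0.464 RPM in the sham rats and 0.452, 0.437, 0.469 and 0.506 RPM in the injured rats. Their log2 differences were -0.40 (SE 0.24), -0.36 (SE 0.26) and -0.23 (SE 0.23) in that order, each less than 2 SE from 0. The circRNA from 57341120 to 57374386 made up 12.4% of the locus difference, that to 57413150 9.08% and that from 57341287 8.01%.

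Most circRNAs of the locus with a fitted difference, abundant ones included, leaned the same way, but the low-abundance ones were too thinly covered to be placed alone. Of the 22 circRNAs, 13 were listed in at least 4 libraries and so received a fitted difference, and 12 of these 13 had a log2 difference below 0. For comparison, 52.0% of all 20174 circRNAs tested had one below 0. The locus was picked for the difference of the sum of its circRNAs, which favours such a lean. Nothing is read from this comparison. The median over the 13 was -0.36, with a range of -0.93 to 0.10, while the median over all circRNAs tested was -0.02. Of the 13, 0 passed the adjusted threshold (limma adjusted p under 0.05), where 0.0248% of all circRNAs did. The exception in sign was the circRNA from 57413013 to 57434518 at the upper edge of the locus, singled out after its values were seen. It stood at 0.103, 0.249, 0.129 and 0.142 RPM in the sham rats and 0.155, 0.103, 0.156 and 0.260 RPM in the injured rats (log2 difference 0.10, SE 0.37). The circRNA from 57374321 to 57434518, which has the same end, stood at 0.129, 0.249, 0.168 and 0.309 RPM in the sham rats and 0.116, 0.0900, 0.143 and 0.104 RPM in the injured rats (log2 difference -0.74, SE 0.36). It too was chosen after its values were seen, and its groups overlapped only through sham replicate 1 and mTBI replicate 3. Of the 13, the circRNA from 57374321 to 57430834 was listed in 3 sham libraries and 1 mTBI library. It met the listing filter mainly through the group where it was higher, so its sign adds nothing. The 9 circRNAs listed in fewer than 4 libraries had 2 to 11 reads in all.

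Summed by splice site, the largest part of the chromosome 7 difference lay at the start 57341120, which also held most of the locus's RPM. On the minus strand this start is the downstream end of the circle, where the splice donor lies. Its 7 circRNAs, the leading one among them, summed to 2.74, 2.95, 2.82 and 2.67 RPM in the sham rats and 2.08, 1.71, 1.97 and 1.71 RPM in the injured rats, 78.3% of the locus difference. They held 2.79 of the 4.03 RPM of the sham mean, and their ratio of 0.668 was near the 0.706 of the whole locus. Of the ends, 57356339 carried 53.8% of the locus difference, nearly all of it from the leading circRNA (53.7%). Its 4 circRNAs summed to 1.46 ± 0.0545 RPM in the sham rats and 0.825 ± 0.236 RPM in the injured rats (SD, n = 4 each). The end 57413150, with 5 circRNAs, stood at 1.24 ± 0.137 and 1.003 ± 0.183 RPM, and its groups overlapped.

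**Figure D2:**
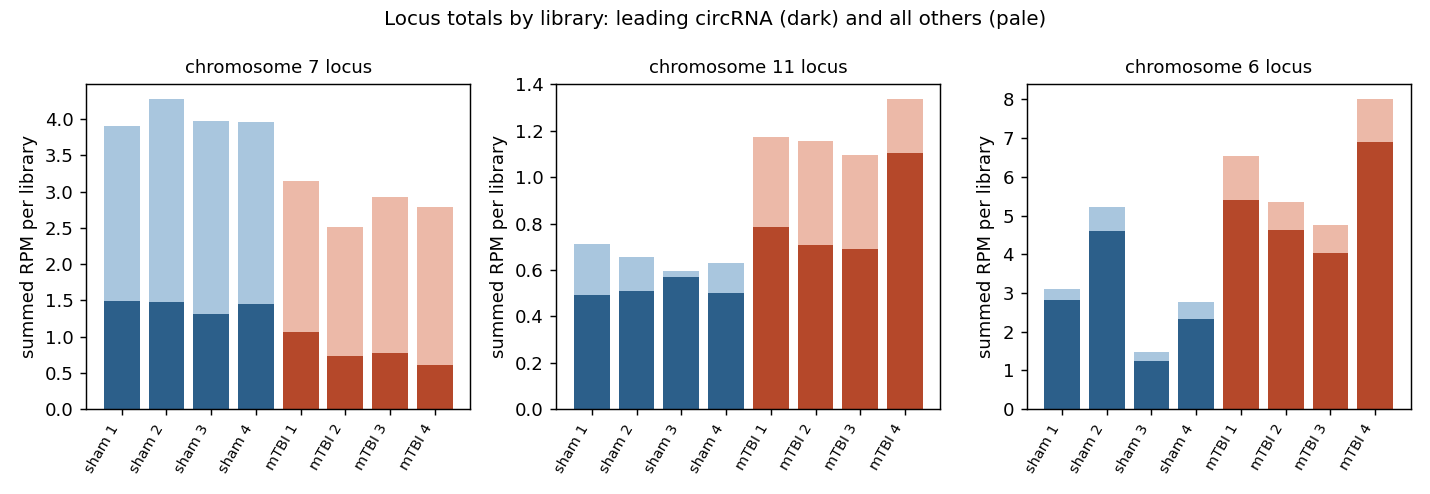
Summed RPM of each locus in the 4 sham libraries (blue) and the 4 mTBI libraries (red), with the leading circRNA in the dark part of each bar and all other circRNAs of the locus in the pale part; bars start at 0. The mTBI bars are all lower on chromosome 7 (2.51 to 3.15 against 3.90 to 4.27 RPM) and all higher on chromosome 11, while on chromosome 6 sham replicate 2, at 5.22 RPM, stands above the lowest mTBI bar, at 4.77 RPM.

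On chromosome 11, the least abundant of the 3 loci, the summed RPM was higher in the 4 injured rats than in the 4 sham rats, with 11 of the 12 circRNAs higher and 1 lower by mean RPM. The total stood at 0.711, 0.655, 0.595 and 0.632 RPM in the sham rats and at 1.17, 1.16, 1.09 and 1.34 RPM in the injured rats, or 46 to 103 reads per library. The groups did not overlap and the mTBI mean was 1.84 times the sham mean (log2 difference 0.85, SE 0.18). Of all locus totals tested, 1.36% had all mTBI values above all sham values, and nothing is read from the place of this one among them. Nor is anything read from the count of 11 of 12, beside 49.0% above 0 over all circRNAs with no filter, since the choice of the locus favours it.

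Its leading circRNA ran from 31943121 to 31955266 (12146 bases, 414 reads in all). It stood at 0.491, 0.511, 0.569 and 0.503 RPM in the sham rats, a narrow range, and at 0.787, 0.707, 0.690 and 1.10 RPM in the injured rats. The groups did not overlap, as for 1.39% of all circRNAs tested with higher values in mTBI, from which again nothing is read. The log2 difference between the groups was 0.62 (SE 0.21). The highest mTBI library, replicate 4, stood well above the other 3. This leading circRNA carried 55.9% of the difference of the locus, and 42.5% without mTBI replicate 4.

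The other 11 circRNAs of the chromosome 11 locus summed to 0.220, 0.144, 0.0259 and 0.129 RPM in the sham rats and 0.387, 0.450, 0.404 and 0.234 RPM in the injured rats. These sums were apart as well, but by little, since sham replicate 1 at 0.220 RPM and mTBI replicate 4 at 0.234 RPM nearly met. As part of the total that chose the locus, they favour such a gap, and nothing is read from it. In reads the sums were 2 to 35 per library. The library with the most of the leading circRNA, mTBI replicate 4, was thus the mTBI library with the least of the others. Its leading share was 82.5% (Wilson 95% interval 74.1% to 88.7%), against 61.1% to 67.0% in the other mTBI libraries and 69.1% to 95.7% in sham.

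Most of that remainder was the circRNA from 31943121 to 31946043, which shares its start with the leading circRNA and was described after its values were seen. It stood at 0.194, 0, 0.0259 and 0.0645 RPM in the sham rats and 0.168, 0.322, 0.195 and 0.104 RPM in the injured rats, and the groups overlapped through sham replicate 1. It made up 23.2% of the locus difference. The start 31943121, on the plus strand the upstream end of the circle and so the splice acceptor, took part in 7 of the 12 circRNAs. These 7 summed to 0.603 ± 0.0758 RPM in the sham rats and 1.08 ± 0.132 RPM in the injured rats (SD, n = 4 each) with no overlap, 88.1% of the locus difference. They held nearly all of the locus's sham mean of 0.648 RPM, and their ratio of 1.79 was near the 1.84 of the whole locus. The difference was thus not concentrated at this start beyond its share, and nothing is read from the lack of overlap. Only 1 circRNA of this locus was listed in all 8 libraries, and 4 were listed in at least 4. All 4 of these had a log2 difference above 0, from 0.12 to 1.55 with a median of 0.68, where 48.0% of all circRNAs tested lay above 0. The choice of this locus by its total favours that lean too, and nothing is read from it. Of these 4, the circRNA from 31943121 to 31979720 was listed in 3 mTBI libraries and 1 sham library. It met the listing filter mainly through the group where it was higher, so its sign adds nothing. None of the 4 passed the adjusted threshold. The remaining 8 circRNAs had 2 to 18 reads each over all libraries, and 5 of them were listed in mTBI libraries alone, at 2 to 4 reads each. The chromosome 7 locus, lower in mTBI, also had 3 listed in mTBI libraries alone, and 2 in sham libraries alone. Nothing is read from listings this close to the smallest value. The number of circRNAs listed was 2 to 4 per sham library and 5 to 7 per mTBI library, beside totals of 46 to 55 and 84 to 103 reads.

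On chromosome 6 the mean of the summed RPM was higher in the injured group, with overlap between the groups and a wide spread among the sham animals. All 6 circRNAs had a higher mean RPM there, beside 49.0% with a log2 difference above 0 over all circRNAs with no filter. The choice of the locus favours such a count, and nothing is read from it. The total stood at 3.11, 5.22, 1.48 and 2.77 RPM in the sham rats and at 6.53, 5.35, 4.77 and 8.01 RPM in the injured rats. The groups overlapped, because sham replicate 2 lay above mTBI replicate 3. Within sham the highest total was 3.54 times the lowest, and within mTBI 1.68 times, while the group means differed 1.96-fold (log2 difference 1.07, SE 0.23). This SE rests on a variance that limma drew toward those of all loci, so it is not the spread of this locus alone. The pooled SD of the log2 totals within groups was 0.57, against 0.10 on chromosome 7 and 0.11 on chromosome 11. Without sham replicate 2 the log2 difference was 1.36, and without sham replicate 3 it was 0.76.

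The leading circRNA ran from 30550488 to 30589369 (38882 bases, 2466 reads in all) and followed the total closely. It stood at 2.82, 4.61, 1.26 and 2.32 RPM in the sham rats and 5.41, 4.62, 4.04 and 6.89 RPM in the injured rats, with the same overlap. It carried 82.4% of the difference, and held 87.5% of the sham RPM. Its share of the locus's reads was 83.7% to 90.5% in sham and 82.8% to 86.3% in mTBI.

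The second circRNA of the locus had the same start and an end 15 bases further on, at 30589384. It stood at 0.297, 0.419, 0.168 and 0.219 RPM in the sham rats and 0.606, 0.502, 0.404 and 0.779 RPM in the injured rats, with sham replicate 2 again above mTBI replicate 3. Its log2 difference of 1.02 (SE 0.28) was close to the 1.04 (SE 0.23) of the leading circRNA. As a share of the reads of this pair, the farther end took 9.54%, 8.33%, 11.8% and 8.63% in sham and 10.1%, 9.80%, 9.09% and 10.2% in mTBI. The share over all libraries was 9.60% (262 of 2728 reads, Wilson 95% interval 8.55% to 10.8%), and the interval of each of the 8 libraries contained it. Each library counts toward that share, and some intervals were wide (7.04% to 19.2% in sham replicate 3), so a moderate shift could be missed. Within that limit no departure of the 2 junctions from a common ratio was seen, while their summed level varied from 1.42 to 7.67 RPM. After each group's mean was removed, their log2 levels had a Pearson r of 0.95 over the 8 libraries, given as a description, since both come from the same libraries. Neighbouring ends that share a start lay within 20 bases of each other in 373 of 20659 such neighbouring pairs in the table (1.81%), 15 of them at a distance of 15 bases. Whether the 2 junctions are separate splice sites or the same circle placed in more than 1 way by the mapping was not tested.

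**Figure D3:**
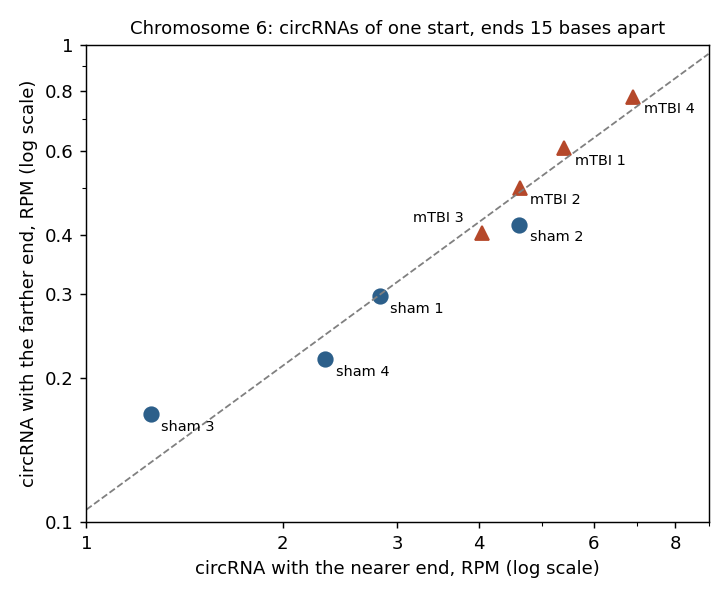
RPM of the chromosome 6 circRNA with the nearer end (horizontal, log scale) against the circRNA of the same start whose end lies 15 bases further on (vertical, log scale), 1 point per library (circles sham, triangles mTBI). The dashed line is the share over all libraries, 9.60% of the pair's reads at the farther end; the 8 points lie along it from sham replicate 3 (1.26 and 0.168 RPM) to mTBI replicate 4 (6.89 and 0.779 RPM).

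The remaining circRNAs of the chromosome 6 locus used other starts. The one from 30547925 to 30589369, described after its values were seen, has the end of the leading circRNA and a start 2563 bases before it. It stood at 0, 0.157, 0.0518 and 0.0774 RPM in the sham rats and at 0.387, 0.193, 0.248 and 0.285 RPM in the injured rats, and here the groups did not overlap. It had 108 reads in all and made up 6.84% of the locus difference. The share of 1.39% given above applies here too, and nothing is read from it. Sham replicate 2, which was high for the leading circRNA, was the highest sham library here too. Of the 6 circRNAs, 4 were listed in at least 4 libraries, with 0 past the adjusted threshold. All 4 had a log2 difference above 0, from 0.21 to 1.92 (median 1.03), where 48.0% of all circRNAs tested did. Here too the choice of the locus by its total favours this lean, and nothing is read from it. The leading circRNA and the one with the farther end together made up 92.2% of the difference. Without the leading circRNA, the others summed to 0.297, 0.603, 0.220 and 0.451 RPM in the sham rats and 1.12, 0.733, 0.729 and 1.12 RPM in the injured rats, which did not overlap, at a ratio of 2.36 between group means. These sums too are part of the total that chose the locus, and nothing is read from their lack of overlap.

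**Figure D4:**
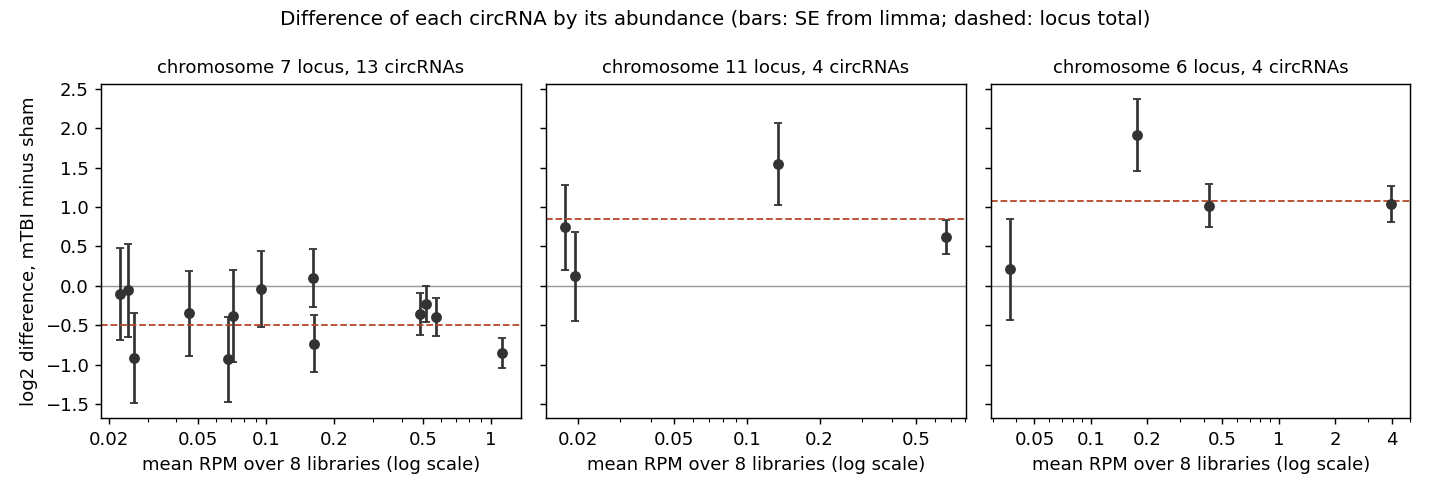
Log2 difference, mTBI minus sham, of each circRNA listed in at least 4 libraries (vertical; bars are the SE from limma) against its mean RPM over 8 libraries (horizontal, log scale), with the locus total as a dashed line. On chromosome 7, 12 of 13 points lie below 0; on chromosomes 11 and 6 all 4 points lie above 0, and the bars widen toward the less abundant circRNAs.

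The spread between animals of the same group differed greatly among the loci. For a total that varied only by counting, the variance of the reads would be about equal to their mean. On chromosome 11 the variance was 0.280 times the mean in sham and 0.688 times in mTBI, and on chromosome 7 0.362 and 1.88 times. On chromosome 6 it was 57.1 and 25.5 times. The median over the 2667 loci with a mean of at least 20 reads was 2.47 in sham and 2.56 in mTBI (upper quartiles 4.62 and 4.90). The chromosome 6 total thus varied among animals of the same group far beyond counting error, whereas the totals of the other 2 loci did not exceed the median locus. With 4 animals a group these ratios are themselves rough, and low ratios in totals picked for a clear group difference are a description of that choice.

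Within groups, no common pattern of the chromosome 7 circRNAs was seen at this depth, which could have hidden a weak one. For the 8 of them listed in all libraries, the 28 pairwise Pearson r of log2 levels after removal of group means had a median of 0.11 and ranged from -0.54 to 0.70, with 16 above 0. The r of 0.70 joined the leading circRNA and that from 57341120 to 57374386. These are descriptions over 8 libraries, and most of these circRNAs had too few reads for a weak r to be read.

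The rule left out the surroundings of the loci, so these were tested. The table listed 0 circRNAs of the opposite strand overlapping any of the 3 loci. On the same strand, 2 circRNAs crossed the lower bound on chromosome 7 and 1 crossed the upper bound on chromosome 11, while none crossed on chromosome 6. The one from 57266997 to 57298656, which overlaps the chromosome 7 locus at its edge but shares no start or end with it, stood at 0.0388, 0.105, 0.0647 and 0.0902 RPM in the sham rats and at 0.0258, 0.0386, 0 and 0 RPM in the injured rats. The 4 sham values were all above the 4 mTBI values, as they were for 1.41% of circRNAs tested, but sham replicate 1 and mTBI replicate 2 both had 3 reads and differ by their scaling alone. Its log2 difference was -1.33 (SE 0.56, limma adjusted p = 0.973 over all circRNAs). The other 2 crossing circRNAs were each listed in 1 library.

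Of the 3 nearest tested loci on either side of each of the 3 loci, 18 in all, 0 passed (limma, adjusted over all loci), and 0 had an unadjusted p under 0.05. Next to the chromosome 7 locus, 2 of 6 were lower and 4 higher in mTBI, with log2 differences from -0.49 to 0.48. The nearest of them, from 57255576 to 57298656, holds the crossing circRNAs and had a log2 difference of -0.49 (SE 0.33, limma adjusted p = 0.951). Around the chromosome 11 locus 4 of 6 were higher (-0.33 to 0.75), and around the chromosome 6 locus 3 of 6 (-0.92 to 1.16). Apart from that overlapping locus, the nearest lay 296581 bases or more away, so these loci say little of the immediate neighbourhood.

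Among the 2652 other loci listed in all libraries with a mean of at least 20 reads, those whose totals followed each locus most closely were found by Pearson r of log2 totals over the 8 libraries, which include the group difference. For chromosome 7 the closest was the minus-strand locus at 86700380 to 86871306 on the same chromosome (r = 0.93), at 0.580 ± 0.0691 RPM in the sham rats and 0.340 ± 0.0453 RPM in the injured rats (SD, n = 4 each). Next came a minus-strand locus on chromosome 9 at 28442925 to 28732920 (r = 0.92) and a plus-strand locus on chromosome 5 at 145257717 to 145278897 (r = 0.91). For chromosome 11 the closest was a plus-strand locus on chromosome 18 at 41026840 to 41052546 (r = 0.91), at 0.363 ± 0.0111 and 0.514 ± 0.0826 RPM, followed by plus-strand loci on chromosome 3 at 122318077 to 122318825 (r = 0.88) and on chromosome 10 at 11626519 to 11670969 (r = 0.87). That chromosome 10 locus was also the closest to the chromosome 6 total (r = 0.93), at 0.947 ± 0.116 RPM in the sham rats and 1.30 ± 0.202 RPM in the injured rats. Minus-strand loci on chromosome 20 at 7346705 to 7379705 (r = 0.92) and on chromosome 14 at 91468957 to 91516715 (r = 0.91) followed. With 8 libraries and that many loci searched, some r of this size can arise for any pattern, and no p is given.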

How the data were processed

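RPM values in 8 libraries, deposited by the authors with chromosome, start, end and strand per circRNA, were used as given; Trimmomatic 0.36, DESeq and build Rnor_6.0 appear in the submitters' processing notes. For the aligner and the circRNA caller, a name is not given in the sources used here. Per the labels' protocols, the library kit kept strand and depleted ribosomal RNA. Columns were matched to animals by group and number. All values above 0 were whole multiples of 0.5 times the smallest listed value (within 0.01 read), so that value was taken as 2 reads, with 76300000 to 77700000 reads per library, rounded.

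Rows and locus totals listed in at least 4 libraries were fitted with limma 3.58.1 (R 4.3.3, eBayes with trend) on log2(RPM + 0.0259), the median smallest listed value, with Benjamini-Hochberg adjustment at 0.05; the functions were tested on simulated data. This scale understates changes of low circRNAs. Each SE rests on a variance drawn toward the trend over all rows or loci, and not on that item's own spread alone. Sums and intervals used pandas 2.3.3, scipy 1.17.1 and numpy 2.4.6 under Python 3.11.15, and plots matplotlib 3.10.9. The labels describe separate cortex samples. Libraries of the same group differed by more than counting noise (chi-square per degree of freedom 2.87 to 3.64).

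The 3 loci, and the rows described, were chosen with earlier results of these data known. The rule named each locus's most abundant row, its row of largest difference, rows in all 8 libraries without overlap or among the 4 highest means, and the 3 most similar loci. Sequences were not printed, since no Rnor_6.0 genome was used here. The gene table at hand is of another assembly and assigned no names.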

Additional observations from a re-analysis of the deposited data

How the results depend on the processing

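Of 192 recalculations, 166 stayed within the spread between replicates or within 1.5 times a count, 26 moved further and 0 reversed a direction. A count could move but had no direction to reverse. Some recalculations could only repeat the planned value: joining by shared ends, taking the leading circRNA by its difference, and the replicate block for the totals. The tally is therefore no measure of how firm the results are. Leaving out each library in turn, the log2 difference was -0.55 to -0.45 for the chromosome 7 total, 0.79 to 0.89 for chromosome 11 and 0.76 to 1.36 for chromosome 6, and the leading circRNA carried 49.3% to 57.5%, 42.5% to 61.7% and 80.5% to 83.9% of the difference. The number of circRNAs leaning with the total, a lean favoured by the choice of the loci, was 12 of 13, 4 of 4 and 4 of 4 as planned. It was 7 of 8, 1 of 1 and 2 of 2 among those listed in all libraries, and 11 of 12 with no filter on chromosome 11. With libraries left out it was 9 to 11 (of 11 to 13 tested), 2 to 3 (of 2 to 4) and 3 to 4 (of 3 to 4). In some of these fits members changed sign: the counts were 9 of 12 on chromosome 7 without mTBI replicate 1 and 10 of 13 without mTBI replicate 3 (9 of 11 without sham replicate 3 or 4 or mTBI replicate 2), 2 of 3 on chromosome 11 without sham replicate 1 and 3 of 4 without sham replicate 3, and 3 of 4 on chromosome 6 without sham replicate 1 or 3. Over the whole table, 5 circRNAs passed as planned, 10 with 4 times the pseudocount, 55 with no filter, 0 at a mean of 20 reads (157 at an unadjusted p under 0.05, limma), 1 without the variance trend, 8 with limma voom on reads (an alternative chosen after seeing the data) and 2 to 9 with libraries left out. Of loci, 1 passed as planned, 20 with no filter, 0 at a mean of 20 reads (148 at an unadjusted p under 0.05), 0 without the trend (400) and 0 to 2 with libraries left out. The chromosome 6 total passed with no filter (among 20 of 16050 loci) and without sham replicate 2 (among 2 of 7377). Its leading circRNA passed in those fits, with 4 times the pseudocount and with voom; with no filter the leading chromosome 7 circRNA and the chromosome 6 circRNA from 30547925 passed too. These fits used the difference that chose the loci, so nothing is read from them. The causes were not tested. The nearest loci outside gave 0 calls throughout. With the replicate number as a block, 0 circRNAs (889 at an unadjusted p under 0.05) and 0 loci (390) passed. The block left the log2 differences of the 3 totals as they were, as it must with 1 library of each group per number. The labels tie same-numbered libraries by their number alone, and whether they share anything else is not known. Their deviations had correlations of -0.01 to 0.03, and not every library correlated best with its own number. The planned edgeR fit was not run, because whole reads rest on an assumed smallest value, and the opposite strand gave nothing to test. Depth limits the chromosome 11 locus most, at 46 to 103 reads per library.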
